A study of Homo sapiens with 4 samples.

Results

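The 7 long noncoding RNA (lncRNA) genes described here, NEAT1, MALAT1, PVT1, LINC00475, PURPL, TP53TG1 and GAS5, are genes linked to p53, taken from 18303 annotated lncRNA genes. They were looked up in lists of p53 ChIP-seq peaks by the distance of each peak to the gene. A gene was counted as having a peak when a listed peak lay inside its RefSeq span or within 10 kb of it. The genes were chosen with their peaks already known, so the presence of a peak is a description here and not a finding. Both peak lists come from HCT116, a colorectal cancer cell line, grown as spheroids in serum-free medium with 20 ng/ml of epidermal growth factor and as much basic fibroblast growth factor, and taken at passages 13 to 18. One group is labelled p53-R273H and the other wildtype control; the way the R273H change was brought into the cells is not given in the labels. Each genotype had 1 ChIP library, made with the p53 antibody DO-1, and 1 input library, so nothing that differs between the genotypes could be checked in replicates and no p-value is given. Peak scores are the authors' own, given for each list separately, and rank peaks within a list only.

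p53 is a transcription factor that binds a pair of adjacent short half-sites as a tetramer and raises transcription of genes of growth arrest, apoptosis and repair. Part of its response runs through RNAs that are not translated. R273H removes an arginine by which the protein contacts DNA, and it is a frequent change in colorectal tumours. The epitope of DO-1 is in the N-terminal region, away from this residue. Whether the antibody recovered both forms equally was not tested.

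The genes fell into 3 groups by their peaks. NEAT1, PVT1 and LINC00475 had a peak in both lists, PURPL, TP53TG1 and GAS5 had one in the wildtype list alone, and MALAT1 had none in either list. Peaks of the R273H list were thus found at 3 of the 7 and peaks of the wildtype list at 6 of the 7. Over all annotated lncRNA genes the shares were 2.15% in the R273H list against 2.95% in the wildtype list, and because the genes were chosen on these peaks nothing is read from that contrast. A peak in both lists was found at 0.929% of lncRNA genes, a peak in the wildtype list alone at 2.02% and a peak in the R273H list alone, which no member had, at 1.22%. Longer genes had peaks more often, with 4.47% of lncRNA genes of at least 50 kb in the R273H list against 5.28% in the wildtype list, and PVT1 spans 307 kb. For the length class of 10 to 50 kb, which holds NEAT1, LINC00475, PURPL and TP53TG1, the shares were 2.02% in the R273H list against 2.98% in the wildtype list. For genes under 10 kb, such as MALAT1 and GAS5, they were 1.70% (R273H) and 2.39% (wildtype). The farthest counted peaks lay 1220 bp (R273H) and 1142 bp (wildtype) outside NEAT1, and the nearest one left out was an R273H peak 14.4 kb from LINC00475.

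**Figure D1:**
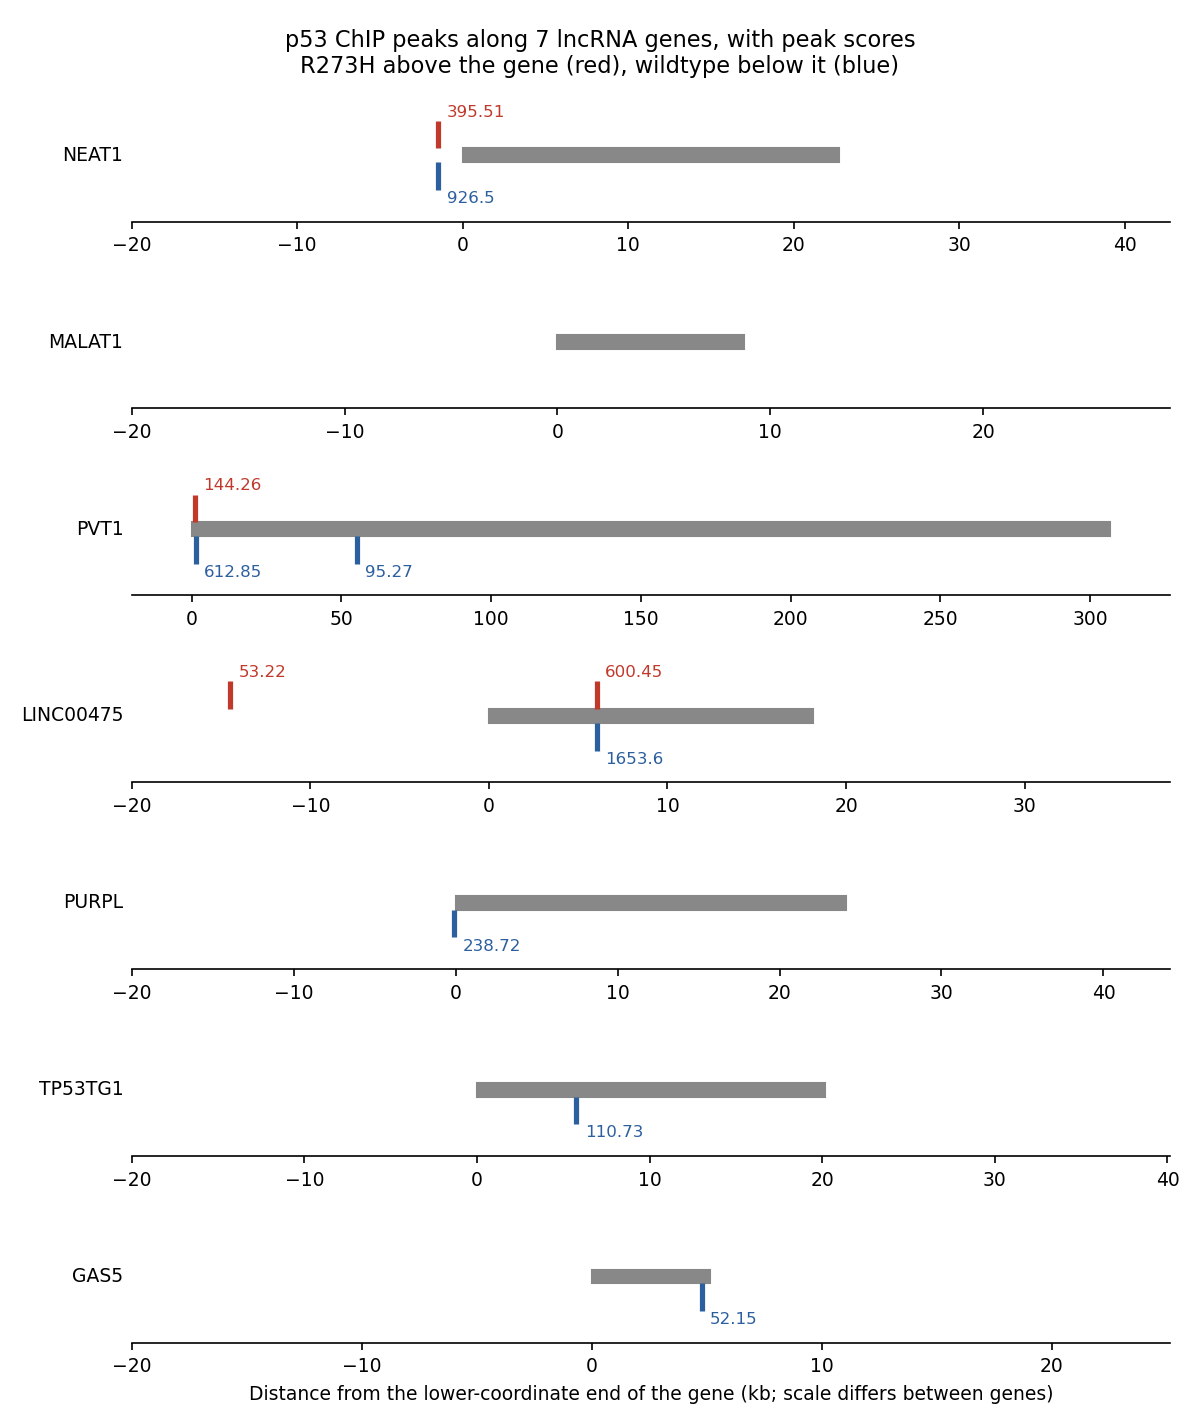
Position of the p53 peaks along the 7 genes. Grey bars are the gene spans, the x axis gives the distance from the lower-coordinate end of each gene in kb on a scale that differs between genes, and numbers are the authors' scores. R273H peaks (red, above the bar) stand at NEAT1, PVT1 and LINC00475, wildtype peaks (blue, below the bar) at every gene except MALAT1, and the R273H peak scoring 53.22 lies 14.4 kb outside LINC00475.

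PURPL, whose name stands for p53 upregulated regulator of p53 levels, is a p53-induced RNA reported to hold p53 protein down. It is the gene at which the sequence could be read under a peak. Its RefSeq promoter window, from 250 bases before to 50 bases after the annotated start, lies at chr5:27472042-27472341 on the plus strand of GRCh38.p14, the assembly of hg38. It is shown because the wildtype peak covered 292 of its bases. Capitals mark the closest match to a tandem p53 site, which is a pair of p53 half-sites of 10 bases each with a spacer of 0 or 1 base; the half-site consensus reads the same on both strands.
PURPL promoter window: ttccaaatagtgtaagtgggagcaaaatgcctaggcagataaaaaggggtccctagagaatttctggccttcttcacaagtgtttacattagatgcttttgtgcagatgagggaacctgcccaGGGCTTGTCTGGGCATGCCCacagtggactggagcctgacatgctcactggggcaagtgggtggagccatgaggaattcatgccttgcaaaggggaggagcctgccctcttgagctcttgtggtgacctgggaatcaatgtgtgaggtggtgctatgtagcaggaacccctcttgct

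All 20 bases of the capitalised stretch in PURPL fitted the consensus, with a spacer of 0. It lay at chr5:27472165-27472184, starting 127 bases before the annotated start of PURPL. The R273H list held no peak at PURPL, and its nearest one was 5461 kb from the gene. The lists hold called peaks only, so an R273H signal below the authors' threshold at PURPL, TP53TG1 or GAS5 would not be seen. The wildtype peak at PURPL ran from 27472050 to 27472385, was 336 bp wide and scored 239. The middle of the site was 43 bp from the midpoint of that peak. PURPL has no annotated gene within 58 kb, the nearest being the lncRNA gene LOC105374695 at 58654 bp on the lower-coordinate side, so the peak lay within 10 kb of no other gene.

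The remaining members with a promoter window held weaker matches. The closest match in each is printed with capitals at the letters that fit the consensus, to set them beside the PURPL site. RefSeq windows were found for 4 of the 7 genes, MALAT1 with a pair of them, and NEAT1, PVT1 and LINC00475 had none in the table used.
GAS5, chr1:173869206-173869225, minus strand: GAACTTaCTCtGcCAAGCTC
TP53TG1, chr7:87345697-87345716, minus strand: GcAgcAGCaCcGGCTcGCTC
MALAT1 first window, chr11:65497501-65497520, plus strand: GcGCgTGCgCAGtCAcGCgC
MALAT1 second window, chr11:65498898-65498917, plus strand: AGAaAAaTCTAGAaAAGTaa

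The GAS5 match had 3 mismatches, and 9.74% of all 34943 distinct promoter windows held a match that good or better. TP53TG1 had 6 mismatches, and the MALAT1 windows had 6 and 5. Matches with at most 5 mismatches were present in 85.6% of windows and with at most 6 in 99.4%, so those at TP53TG1 and MALAT1 are ordinary for a window of this length. None of these 4 windows was overlapped by a peak of either list. An exact half-site, present in 6.64% of all windows, was found in the PURPL window, which held 2, and in none of the other member windows. The absence of a match concerns these letters in this window alone.

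**Figure D2:**
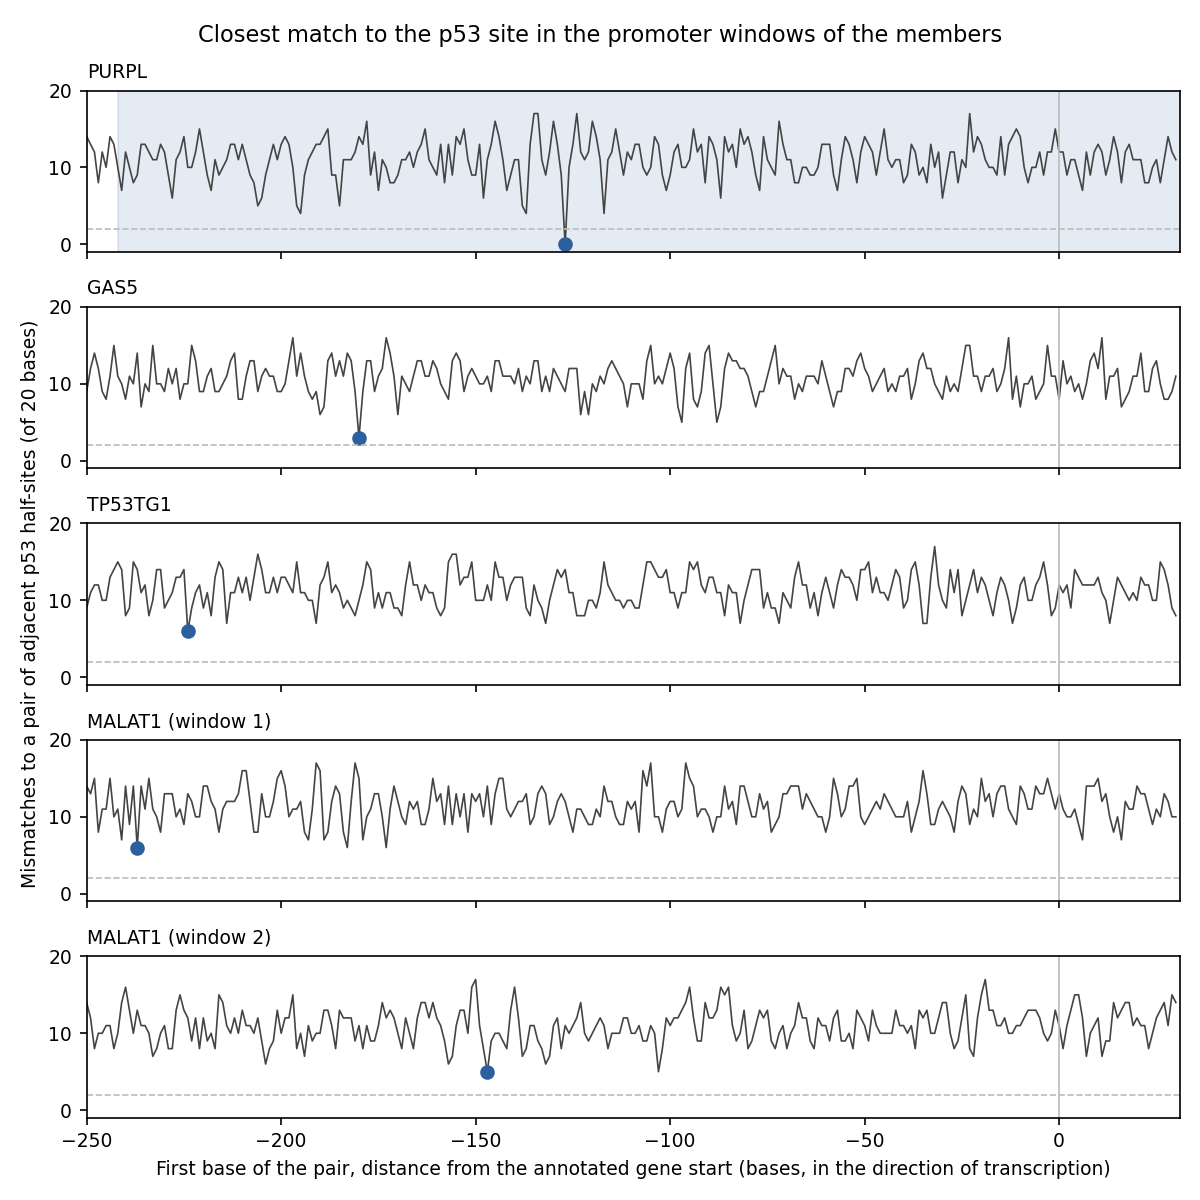
Mismatches to a pair of adjacent p53 half-sites (spacer 0) at each position of the promoter windows. The x axis gives the first base of the pair in bases from the annotated start, the dot marks the closest match, the dashed line stands at 2 mismatches, and shading marks the wildtype peak at PURPL. The PURPL profile reaches 0 mismatches at 127 bases before the start, under the wildtype peak, whereas the lowest points elsewhere are 3 (GAS5), 6 (TP53TG1), 6 and 5 (MALAT1).

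A match without mismatches was rare among promoters. It occurred in 7 of the 34943 windows, 0.0200%. The 7 sites are printed to compare PURPL with the others, with the 4 central bases of each half-site in capitals. They are every window with such a match, and they were added after their peaks were seen.
PURPL, chr5:27472165-27472184, plus strand: gggCTTGtctgggCATGccc
DDB2, chr11:47214979-47214999, plus strand: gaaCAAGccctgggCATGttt
LNCTAM34A, chr1:9182144-9182163, plus strand: gaaCAAGcccaggCAAGccc
EIF2AK3-AS1, chr2:88538483-88538502, plus strand: aggCATGcctaggCATGcct
PTCHD4, chr6:48111198-48111217, minus strand: aggCTTGcccagaCTTGccc
LOC124901737, chr7:121511295-121511314, minus strand: agaCATGtccagaCATGcct
LOC105376065, chr9:41533324-41533343, minus strand: gggCATGtttaggCAAGctc

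A peak overlapped 4 of these 7 windows in the R273H list against 6 of 7 in the wildtype list. PURPL and DDB2, which encodes a damage sensor of nucleotide excision repair, had no R273H peak and a wildtype peak. LNCTAM34A, EIF2AK3-AS1, PTCHD4 and LOC124901737 had peaks of both lists, and LOC105376065 had neither, its nearest R273H peak being 6236 bp and its nearest wildtype peak 6002 bp from the site. Within the wildtype list the PURPL peak scored lowest of the 6, at 239, followed by DDB2 at 253 and EIF2AK3-AS1 at 322. PTCHD4 scored 833, and both LNCTAM34A and LOC124901737 scored 3100. That value was tied at rank 2 among several wildtype peaks, and 1.12% of the list scored at least as high. The DDB2 peak, nearest to that of PURPL in wildtype score, had no R273H partner either, and the next, at EIF2AK3-AS1, had one scoring 259. Over all windows, 30 were overlapped by an R273H peak and 64 by a wildtype peak. Windows whose best site had 4 or more mismatches had a peak in 0.0602% of cases in the R273H list against 0.136% in the wildtype list. Such windows nonetheless made up 19 of the 30 with an R273H peak and 43 of the 64 with a wildtype peak. Of the 47 windows with 1 mismatch, 1 had a peak, the same window in both lists.

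**Figure D3:**
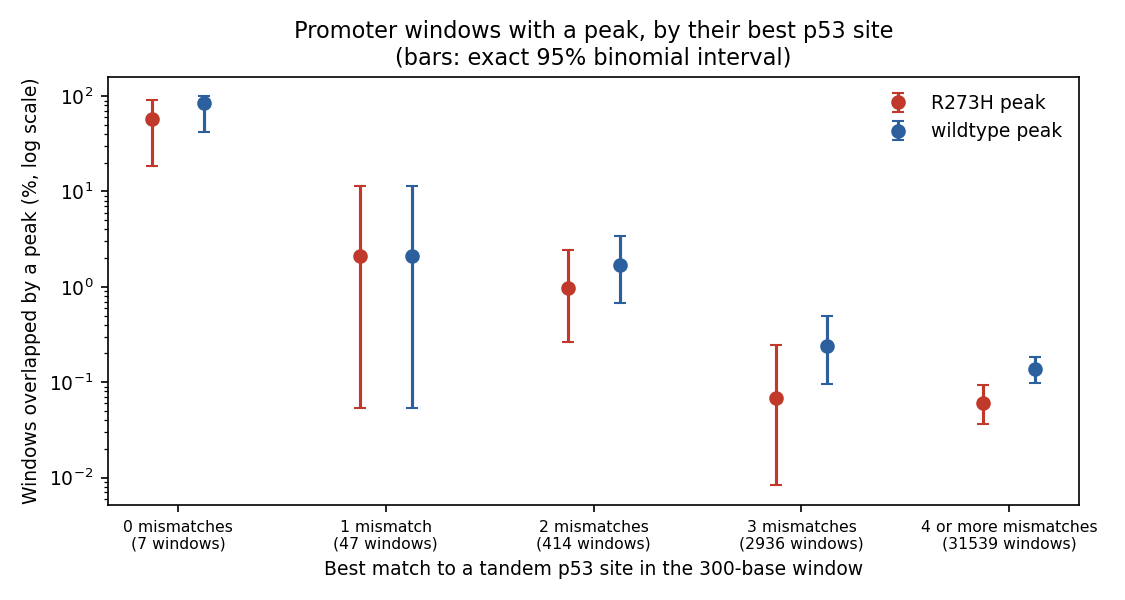
Share of promoter windows overlapped by a peak, by the number of mismatches in their best tandem p53 site. Points are percentages on a log scale with exact 95% binomial intervals, R273H in red and wildtype in blue. With 0 mismatches, the class of PURPL, 57.1% of 7 windows had an R273H peak (95% interval 18.4 to 90.1) and 85.7% a wildtype peak (42.1 to 99.6). Both shares are of the same 7 windows, so the intervals do not compare the lists.

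NEAT1 makes the architectural RNA of paraspeckles, nuclear bodies that hold back certain proteins and RNAs. Its R273H peak lay at chr11:65421048-65421578 and scored 396. The wildtype peak lay at chr11:65420985-65421656 and scored 926.5. Both lay outside the gene (65422798 to 65445540), on the side where NEAT1 is known to start, the R273H peak ending 1220 bp and the wildtype peak 1142 bp before its lower-coordinate end. The R273H peak fell wholly within the wildtype peak, and the midpoints were 7.5 bp apart. In the R273H list 4.88% of peaks scored at least as high as the NEAT1 peak (exact 95% binomial interval 3.98 to 5.92), and in the wildtype list 5.29% did (4.37 to 6.35). Among peaks within 10 kb of a gene the shares were 9.38% (R273H) and 6.80% (wildtype), so their order between the lists depends on the peaks ranked. FRMD8, a membrane-associated protein gene on the other side of the peak, ended 7523 bp from the R273H peak and 7460 bp from the wildtype peak.

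MALAT1, which makes an abundant RNA of nuclear speckles, lies on the same chromosome at 65497738 to 65506516. No peak of either list lay inside it or within 10 kb. The NEAT1 peak was the nearest one in both lists, 76.2 kb away in the R273H list against 76.1 kb away in the wildtype list. The stretch between the 2 genes, with FAUP4, ENEMAL and LINC02736, held no peak, nor did TALAM1 and MASCRNA, which overlap the MALAT1 span. The lists hold called peaks only, so a signal below the authors' threshold at MALAT1 would not be seen.

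PVT1, an RNA gene next to the growth-promoting transcription factor gene MYC, had its main peak near its lower-coordinate end in both lists. The gene spans 127794524 to 128101256 on chromosome 8. The R273H peak at 127795487 to 127795899 scored 144, with its midpoint 1169 bp into the span. The wildtype peak at 127795573 to 127796180 scored 613, with its midpoint 1352.5 bp into the span. The midpoints lay 183.5 bp apart, farther than at NEAT1, and 79.2% of the R273H peak and 53.8% of the wildtype peak overlapped. The R273H peak ended 63 bp before the microRNA gene MIR1204 (127795962 to 127796028), which lay inside the wildtype peak. A second wildtype peak, at 127849661 to 127849908, scored 95.3 and lay 18.0% of the way along the span from the lower-coordinate end, with no R273H partner. MYC, 51573 bp from PVT1, had no peak of either list within 10 kb.

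LINC00475 had the highest-scoring peak of the 7 genes in both lists. Its R273H peak at chr9:92147207-92147782 scored 600.45, and 3.29% of R273H peaks scored at least as high (2.55 to 4.16). The wildtype peak at chr9:92147223-92147855 scored 1653.6, and 2.91% of wildtype peaks scored at least as high (2.23 to 3.74). Among peaks within 10 kb of a gene these shares were 6.58% (R273H) and 4.01% (wildtype). Unlike the peaks of NEAT1 and PURPL, these lay well inside the span (92141467 to 92159608), 33.2% of the way from the lower-coordinate end in the R273H list against 33.5% in the wildtype list. They overlapped by 560 bp, which is 97.2% of the R273H peak and 88.5% of the wildtype peak. The small nucleolar RNA gene LOC124902345, which lies within LINC00475, was 2021 bp from the R273H peak and 2037 bp from the wildtype peak. The R273H list held a further peak at 92126908 to 92127059 that scored 53.2, close to the lowest score of that list (50.02), and 5775 bp from the pseudogene LOC100128076.

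**Figure D4:**
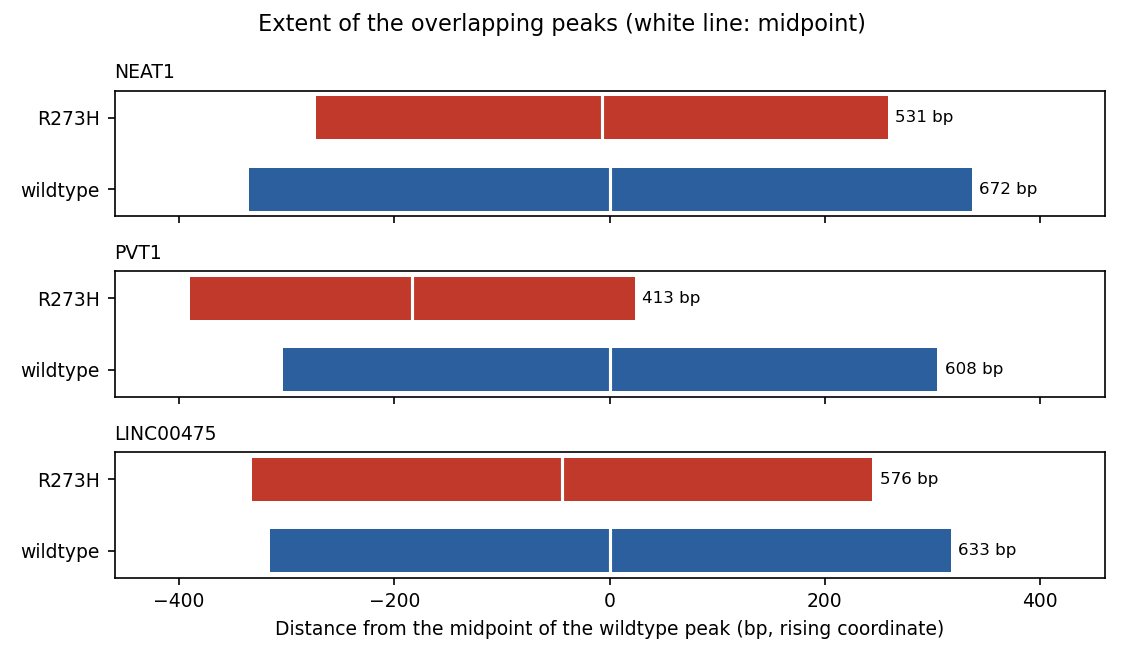
Extent of the R273H (red) and wildtype (blue) peaks at the 3 genes with peaks in both lists. The x axis is the distance from the midpoint of the wildtype peak in bp along rising coordinates, and white lines mark midpoints. The R273H peak is narrower than the wildtype peak at NEAT1 (531 bp in R273H against 672 bp in wildtype), at PVT1 (413 bp in R273H against 608 bp in wildtype) and at LINC00475 (576 bp in R273H against 633 bp in wildtype), and the R273H midpoint is displaced most at PVT1.

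At NEAT1 the R273H peak was 531 bp wide and the wildtype peak 672 bp. The PVT1 peaks were 413 bp wide in the R273H list against 608 bp in the wildtype list, and those of LINC00475 were 576 bp (R273H) and 633 bp (wildtype) wide. The R273H peak was thus the narrower one at all 3 genes, with width ratios of R273H over wildtype of 0.790, 0.679 and 0.910. This was also the usual case among overlapping pairs, though not over all peaks. The median width of all peaks was 375 bp in the R273H list against 324 bp in the wildtype list. Of 411 pairs in which 1 R273H peak overlapped 1 wildtype peak, the wildtype peak was wider in 325, or 79.1%, with a median ratio of 0.793 (quartiles 0.6204 to 0.9658). Midpoints of these pairs were a median of 33.5 bp apart (quartiles 15.0 to 69.2), so the offset at NEAT1 was below the lower quartile, that at LINC00475 (44.5 bp) between the quartiles and that at PVT1 above the upper quartile.

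TP53TG1, whose name stands for p53 target gene 1, makes an RNA induced by DNA damage in a p53-dependent manner. It is annotated on the minus strand at chr7:87325347-87345492, and its start lies 172 bp from that of CROT, a peroxisomal carnitine acyltransferase gene. The R273H list had no peak nearer than 4646 kb. The wildtype peak at 87330999 to 87331224 was 226 bp wide and scored 111. It did not lie at this shared start but 14.4 kb downstream of it, 71.4% of the way along the gene. Of the wildtype peaks, 25.9% scored at least as high (24.1 to 27.9).

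GAS5, growth arrest specific 5, is a host gene of small nucleolar RNAs whose transcript accumulates in arrested cells. It is annotated on the minus strand at chr1:173863901-173869045. The nearest R273H peak was 930815 bp away. The wildtype peak at 173868616 to 173868750 was 135 bp wide and scored 52.15, against a lowest score of 50.01 in that list. Its midpoint lay 362 bp downstream of the GAS5 start, 7.04% of the way along the gene, in a stretch that ZBTB37, a zinc finger protein gene, also covers. The same midpoint lay 303 bp downstream of the ZBTB37 start, on the plus strand, to which its promoter window belongs. The ZBTB37 span itself begins at 173868082, farther from the midpoint than the GAS5 start. The peak was nearer to the ZBTB37 promoter window (187 bp) than to that of GAS5 (246 bp), so it cannot be given to either gene by distance. GAS5-AS1, an antisense lncRNA gene, lay 4675 bp from it. Of the wildtype peaks 88.4% scored at least as high (87.0 to 89.8), which makes it the weakest of the member peaks. The nearest small nucleolar RNA gene, SNORD74, was 871 bp away, and the other 10 small nucleolar RNA genes within the host lay 1678 to 4394 bp from the peak.

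**Figure D5:**
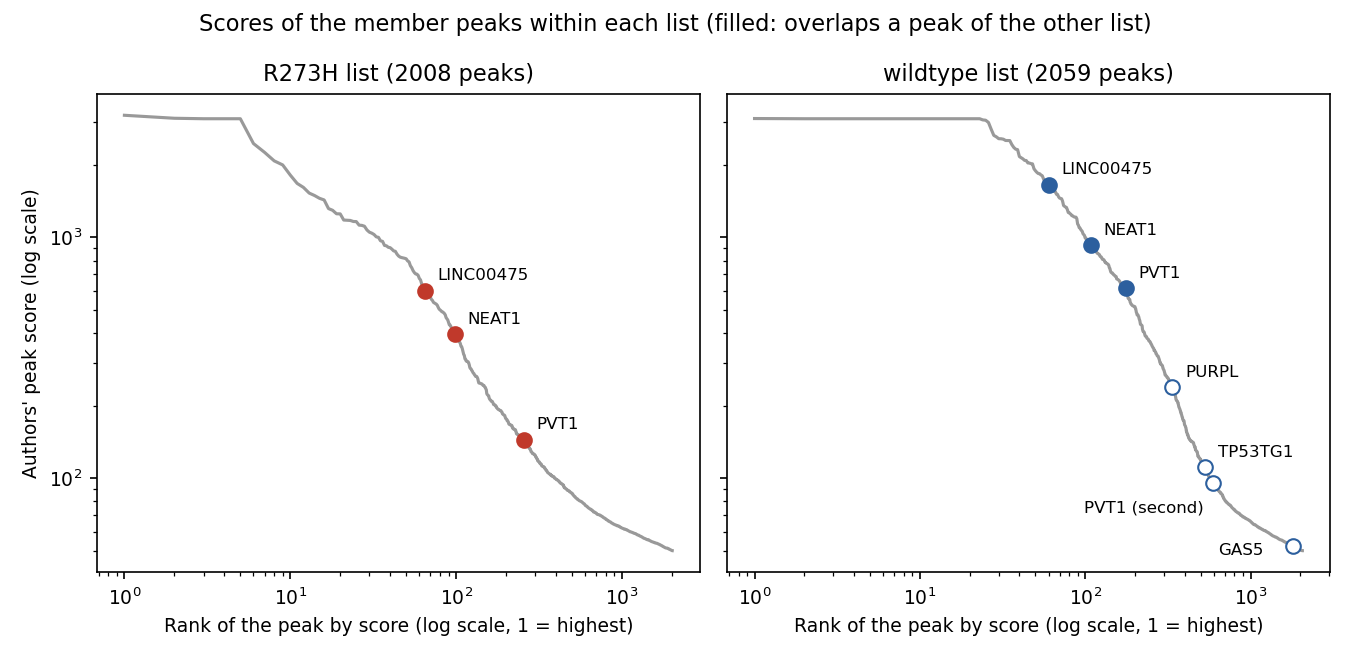
Scores of the member peaks within each list. The grey line is every peak of the list by rank (x, log scale, 1 is the highest) and score (y, log scale); filled dots overlap a peak of the other list and open dots do not. The R273H list (left) holds LINC00475, NEAT1 and PVT1, the wildtype list (right) holds these same genes above PURPL, TP53TG1, the second PVT1 peak and GAS5, and scores are not comparable between the panels.

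NEAT1, PVT1 and LINC00475 stood in the same order by score in both lists. LINC00475 ranked 65 of 2008, NEAT1 98 and PVT1 255 in the R273H list. In the wildtype list LINC00475 ranked 60 of 2059, NEAT1 109 and PVT1 177, followed by PURPL at 337, TP53TG1 at 534, the second PVT1 peak at 597 and GAS5 at 1819. The peaks without an R273H partner were thus the 4 lowest of the 7 wildtype member peaks. Over the whole lists, 437 of 2059 wildtype peaks overlapped an R273H peak, and 440 of 2008 R273H peaks overlapped a wildtype peak.

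Over the whole wildtype list, sharing also rose with the score, and the members can be read against their own score class. In the class of 200 to 500, which holds PURPL, 113 of 164 wildtype peaks overlapped an R273H peak, 68.9% (exact 95% binomial interval 61.2 to 75.9). In the class of 100 to 200, which holds TP53TG1, 52 of 200 did, 26.0% (20.1 to 32.7). From 60 to 100, the class of the second PVT1 peak, 44 of 687 did, 6.40% (4.69 to 8.50). From 50 to 60, the class of GAS5, 31 of 806 did, 3.85% (2.63 to 5.42). PURPL is therefore the member without a partner in a class where most peaks had one. Its score of 239 lies in the lower part of that class, however, and sharing rose with the score. The share at that score may thus be below 68.9% and was not computed. From 500 to 1000, which holds NEAT1 and the main PVT1 peak, 100 of 103 were shared, 97.1% (91.7 to 99.4). From 1000 to 4000, the class of LINC00475, 97 of 99 were shared, 98.0% (92.9 to 99.8).

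Most peaks of the members lay near a gene end. Midpoints were within 2 kb of an end at NEAT1 and PVT1 in both lists and at PURPL and GAS5 in the wildtype list, which is 2 of 3 genes with an R273H peak and 4 of 6 with a wildtype peak when the highest-scoring peak of each gene is taken. Among all lncRNA genes with a peak, 27.2% of 393 in the R273H list (22.9 to 31.9) and 31.7% of 540 in the wildtype list (27.8 to 35.8) had it that near. With 3 and 6 genes, chosen with their peaks known, no difference from other lncRNA genes is claimed.

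Other RNA genes linked to p53 were taken from a list of 32 symbols, put together with earlier results of these data known, of which 31 matched the gene table and TP53COR1 did not. TUG1 and WRAP53 are annotated as protein-coding in that table and RMRP as an RNase MRP RNA; the others are lncRNA genes. Apart from the 7 members, 24 matched genes remained, of which 6 carried a peak of the R273H list and 5 one of the wildtype list, beside 2.15% (R273H) and 2.95% (wildtype) of all lncRNA genes. PANDAR and DINOL, on either side of the CDKN1A start, shared a top peak scoring 1427 in the R273H list against 3106 in the wildtype list. MIR34AHG and LNCTAM34A, from whose region the microRNA miR-34a is made, shared one scoring 1160.05 in the R273H list against 3100 in the wildtype list. DLEU1, a gene of the region deleted in leukaemia, had a peak 579 bp outside its span scoring 1671 in the R273H list and one 383 bp outside scoring 2804 in the wildtype list. These 5 genes thus carried higher-scoring peaks than any of the 7 members in either list. LINC-ROR, reported to repress translation of p53, was the one gene with a peak in the R273H list alone, at chr18:57069810-57069963 with a score of 57.4. Of the R273H peaks, 64.2% scored at least as high. In the R273H score class of 50 to 60, 58 of 895 peaks overlapped a wildtype peak, 6.48%. The other 18 genes had no peak in either list: LINC-PINT, MEG3, H19, HOTAIR, TUG1, DLEU2, CDKN2B-AS1, WRAP53, MIR22HG, SNHG1, EPB41L4A-AS1, LINC00467, NBAT1, CCAT1, CCAT2, CRNDE, LINC01705 and RMRP. Over the whole list of 31, members included, the R273H list marked 9 genes and the wildtype list 11, and neighbouring genes share peaks in that count. Counting only peaks over the gene span, the R273H list marked 5 and the wildtype list 8.

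Further genes related to GAS5 and PVT1 were looked up in the same way. The 11 further RNA genes that host small nucleolar RNAs as GAS5 does had no peak in either list: SNHG1, SNHG3, SNHG5, SNHG6, SNHG7, SNHG8, SNHG12, SNHG15, SNHG16, ZFAS1 and EPB41L4A-AS1. The 6 genes chosen around PVT1, which are MYC, CASC11, CASC8, LINC02912 (listed as TMEM75), GSDMC and CCDC26, had none in either list. Over all lncRNA genes the shares with a peak were 2.15% in the R273H list against 2.95% in the wildtype list. For protein-coding genes in general they were 3.09% in the R273H list against 4.83% in the wildtype list. With shares this low, nothing is read from sets of 11 and 6 genes without a peak.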

How the data were processed

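p53 ChIP-seq of HCT116 spheroid cells gave 2 ChIP and 2 input libraries; the values come from 1 deposited peak list per genotype. Cells were fixed for 5 minutes in 1% formaldehyde and sonicated for 10 minutes, per the labels' protocols. Per the submitters' processing notes, which name no roles, Bowtie 1.2.2, MACS, HOMER and hg38 were used. The deposited value of each peak is the authors' score; its scale, the threshold set and the role of the input were not given in the sources used here, and depth is unknown. Each list was assigned to the ChIP sample for which it is named, because the description field of the wildtype sample points to the other list. Peak numbers ran without a gap from 193 to 2200 (R273H) and from 228 to 2286 (wildtype), beginning at base 10001 of chromosome 1. Peaks with lower numbers were absent from the lists used here.

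Gene spans, promoter windows and sequences came from RefSeq tables of GRCh38.p14; exons, introns and untranslated regions are not given there. Overlaps needed at least 1 bp. Motif search covered the p53 half-site consensus of 10 bases and pairs of it with a spacer of 0 or 1 base, in 34943 distinct windows; the closest pair was kept whatever its mismatches. Shares have exact (Clopper-Pearson) 95% binomial intervals, which cover counting error only and treat neighbouring peaks as independent. The text names all 7 members, every gene with a peak in the lists reported, and the genes within 10 kb of a member peak or next to a member, with the small nucleolar RNA genes inside GAS5 given as a group. A list of protein partners of the members is not reported here. Genes with a perfect site were added after their values were seen. The members and lists were chosen with earlier results of these data known. Counting and motif search were tested on simulated data. Alternatives were other distances to genes, other overlap rules, a score filter at the median of each list, other peak sets for ranking and other reference points for position. Python 3.11.15, pandas 2.3.3, numpy 2.4.6, scipy 1.17.1 and matplotlib 3.10.9 were used.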

Additional observations from a re-analysis of the deposited data

How the results depend on the processing

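With 1 ChIP library per genotype, leaving out a library is not possible. No paired analysis was possible because each genotype has a single ChIP library and no test was made. Where a peak had to overlap the gene span, which leaves out NEAT1, 2 members had an R273H peak and 5 had a wildtype one. Within 2 kb and within 50 kb the counts were 3 (R273H) and 6 (wildtype). They were 3 (R273H) and 5 (wildtype) once each list was limited to its upper part by score, its median included, which leaves out GAS5. The 3 genes with overlapping peaks stayed 3 under a reciprocal overlap of 50%, with midpoints at most 200 bp apart, with gaps up to 1000 bp and with the score filter. Of the 31 list genes, 5 and not 9 had an R273H peak over the gene span itself, and 8 and not 11 a wildtype peak.

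Of all 18303 annotated lncRNA genes, 393 (R273H) and 540 (wildtype) had a peak inside or within 10 kb. Over the span the counts were 198 (R273H) and 283 (wildtype), and within 2 kb 251 (R273H) and 353 (wildtype). Within 50 kb they were 1040 (R273H) and 1372 (wildtype), and with the score filter 236 (R273H) and 326 (wildtype). This background thus moved with the setting. Among only peaks within 10 kb of a gene, the share scoring at least as high was larger for all 10 member peaks. At the main PVT1 peak it was 22.99% of R273H peaks instead of 12.7%, and 10.7% of wildtype peaks instead of 8.60%. Without the ribosomal RNA region of chromosome 21, between 8 and 9 Mb, none of the 10 moved beyond its interval. The PURPL peak is the one that crosses a gene end, with its midpoint outside the gene and its last base 93 bp inside it.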

Other observations

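The wider surroundings of the genes differed in how many peaks they held. Within 1 Mb of PURPL and of TP53TG1 the R273H list had 0 peaks and the wildtype list had 1 each, the member peak itself. LINC00475 had 6 R273H and 3 wildtype peaks within 1 Mb. Beside its own peak, overlapping peaks of both lists lay 641 kb away near LOC101929748, scoring 272.71 (R273H, the higher of 2) and 772 (wildtype), and 829 kb away in FGD3, a guanine nucleotide exchange factor gene, scoring 145 (R273H) and 94.7 (wildtype). An R273H peak in NINJ1, which encodes a cell surface protein of plasma membrane rupture, scored 59.3 and had no wildtype partner.

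GAS5 had 1 R273H peak within 1 Mb, in RABGAP1L, scoring 55.5. It had 4 wildtype peaks there, all scoring under 60, in TNFSF4, in ANKRD45, at GAS5 itself and in RABGAP1L. Around NEAT1 and MALAT1 the R273H list had only the NEAT1 peak within 1 Mb, and the wildtype list had 3 others, in PYGM (63.5), SLC22A20P (76.95) and POLA2 (53.02), each without an R273H partner.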
